A study of Rattus norvegicus with 6 samples.

Results

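The genes described here encode the machinery of oxidative phosphorylation: the subunits of respiratory complexes I to IV and of ATP synthase (complex V), together with the assembly factors and the regulator that share their gene symbols. They were chosen by symbol, namely those beginning with Nduf, Uqcr, Cox4 to Cox8 or Atp5, plus Sdha, Sdhb, Sdhc and Sdhd. Probes on the array named 83 such genes, and 82 of them, through 141 of 145 probes, were kept as measured. They are 82 of the 11344 named genes measured in all. All 82 were well above background on each of the 6 arrays, whereas Cox8c, a testis-type subunit, was not on any. The mRNAs encoded by mitochondrial DNA itself had no named probe, so what follows covers only the nuclear-encoded part of each complex.

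Liver RNA came from male Sprague-Dawley (Crl:CD(SD)) rats bought at 5 weeks of age. One group of 3 rats received ADBAQ (1-amino-2,4-dibromoanthraquinone, an anthraquinone dye intermediate) at 1000 mg/kg/day and the control group of 3 received vehicle alone, with 1 one-colour Agilent array per rat. The labels name the vehicle as purified water in one place and corn oil in another, and the duration as 28 days or 9 weeks. The comparison of the groups asks which liver genes differed after the chemical.

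Oxidative phosphorylation passes electrons from NADH (at complex I) and succinate (at complex II) through ubiquinone to complex III, then through cytochrome c to complex IV, which reduces oxygen. Complexes I, III and IV pump protons across the inner mitochondrial membrane, and complex V uses the resulting gradient to make ATP. Hepatocytes are rich in mitochondria and rely on this chain for costly processes such as urea synthesis and glucose production. Complex I is built from modules (a matrix N module that takes up NADH, a Q module that reduces ubiquinone, and a membrane arm that pumps protons) with the help of assembly factors that do not stay in the finished enzyme.

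Relative to the 75th percentile of each array, few structural subunits passed the threshold after ADBAQ, and the members that rose were of another kind. Of 82 measured members 7 passed the threshold (adjusted p under 0.05 by limma with Benjamini-Hochberg adjustment), which is 8.54%, against 20.3% of all genes tested. The 3 that fell, Ndufa1, Ndufa2 and Ndufa4, are small subunits, at 73.8% to 79.9% of the vehicle level. Scaled to the spike-in controls instead, all 3 turned to increases, and 80 of the 82 members were called higher and none lower. Over all genes 8943 were then called higher and 185 lower. The 4 that rose are the ATP synthase inhibitor Atp5if1 and the complex I assembly factors Ndufaf4, Ndufaf1 and Ndufaf3, and none of the 72 structural subunits passed the threshold in that direction. With normexp background correction 6 members were called higher, among them the structural subunits Atp5f1c, Ndufab1 and Sdhc, and 12 lower. Among all genes 9.05% were called higher and 11.3% lower.

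Every array was scaled to its own 75th percentile of signal, which lay between 433 and 461 intensity units on the vehicle arrays and between 570 and 643 on the ADBAQ arrays. Between 62.1% and 65.3% of probes on an array were well above background. The number of arrays limits the precision. All vehicle arrays were on 1 slide and all ADBAQ arrays on another, scanned on a different day, and the treatment cannot be told apart from the slide or the scan. In bulk tissue, fewer cells of a type and less RNA per cell cannot be told apart either.

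**Figure D1:**
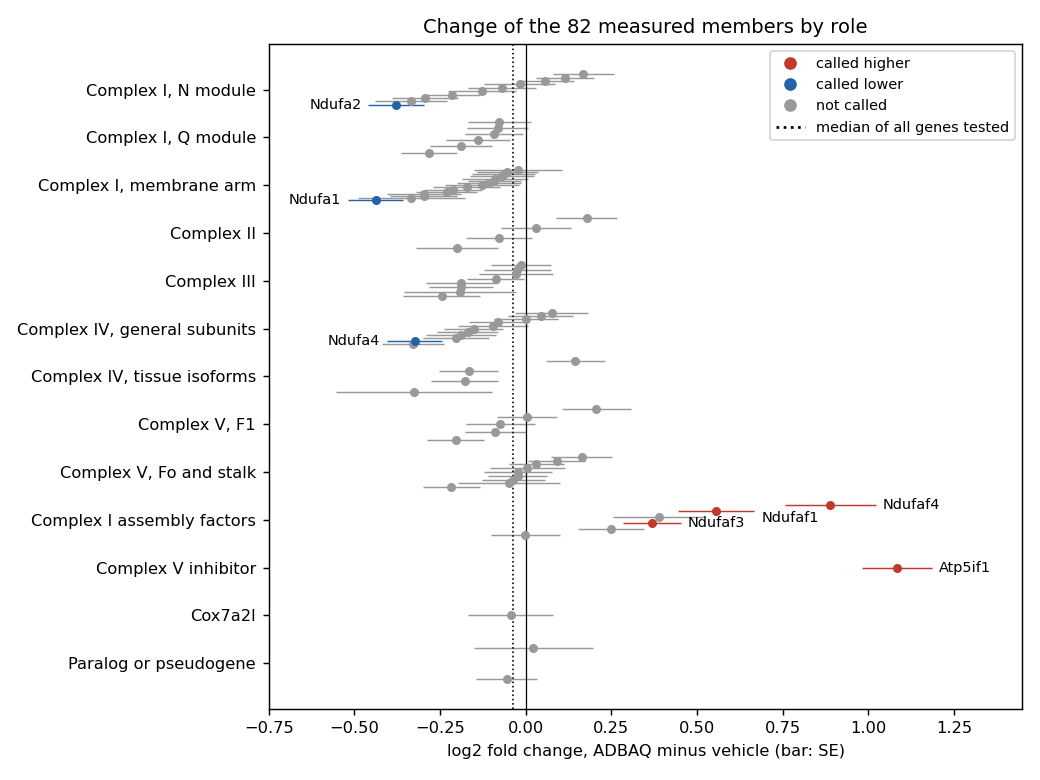
Log2 fold change (ADBAQ minus vehicle, 3 rats per group) of the 82 measured members, grouped by role; bars are the standard error of the limma fit, colours mark the calls, and the dotted line is the median of all genes tested (-0.04). The structural subunits lie between -0.44 and 0.21, and the 4 called increases, up to 1.08, are 3 assembly factors and the inhibitor.

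Atp5if1 encodes the inhibitory factor IF1, a small protein that binds the F1 part of ATP synthase and blocks ATP hydrolysis when the membrane potential fails. Its log2 signal over the array's 75th percentile was 3.87, 4.02 and 3.88 in vehicle and 4.98, 4.90 and 5.14 in ADBAQ. All 3 ADBAQ values lay above all 3 vehicle values. The difference was 1.08 ± 0.10 on the log2 scale (SE, n = 3 rats per group; adjusted p = 0.00354), or 2.12-fold, from 1 probe. It passed the threshold under all 17 alternatives, with an adjusted p between 0.0138 and 0.0193 when 1 array was left out.

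The assembly factors of complex I stood on the higher side as well. Of 6 measured Ndufaf genes 3 were called higher and none lower (9.05% and 11.3% of all genes were). In 5 the groups did not overlap, in each case with ADBAQ higher (non-overlap in that direction held for 21.2% of all genes). Their median log2 fold change was 0.38, beside -0.04 for all genes tested. Ndufaf4, which acts early in assembly together with Ndufaf3, had values of 1.55, 1.69 and 1.82 in vehicle and 2.75, 2.61 and 2.37 in ADBAQ. It rose by 0.89 ± 0.13 (adjusted p = 0.0109), or 1.85-fold, and stayed called with any 1 array left out. All 4 of its probes were called higher, the other 3 with log2 fold changes of 1.12, 1.15 and 1.25.

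Ndufaf1, a chaperone of the membrane arm, had values of -0.21, 0.07 and -0.21 in vehicle and 0.49, 0.48 and 0.35 in ADBAQ. The ADBAQ arrays were all higher, and the change was 0.56 ± 0.11 (adjusted p = 0.0227). Its call held without vehicle replicate 2 (adjusted p = 0.0287) and was lost without any other 1 array (adjusted p up to 0.0782). Ndufaf3 had values of 2.43, 2.50 and 2.46 in vehicle and 2.80, 2.91 and 2.78 in ADBAQ. The groups were again apart, with a change of 0.37 ± 0.09 (adjusted p = 0.0333), and its second probe was called at 0.35. Leaving out any single array ended its call (adjusted p between 0.0729 and 0.100), as did normexp background correction.

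The other 3 assembly factors did not pass the threshold. Ndufaf7, a methyltransferase, had a log2 fold change of 0.39 ± 0.13 (adjusted p = 0.0909). Its ADBAQ values of -0.16, -0.51 and -0.06 all lay above the vehicle values, which were between -0.64 and -0.62. A second probe of Ndufaf7 was called at 0.63, and so was the gene as the mean of its probes or without ADBAQ replicate 2. Ndufaf5, a hydroxylase that acts on Ndufs7, had a value of 0.25 ± 0.10 (adjusted p = 0.121), and its partner Ndufaf8 one of -0.00 ± 0.10.

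**Figure D2:**
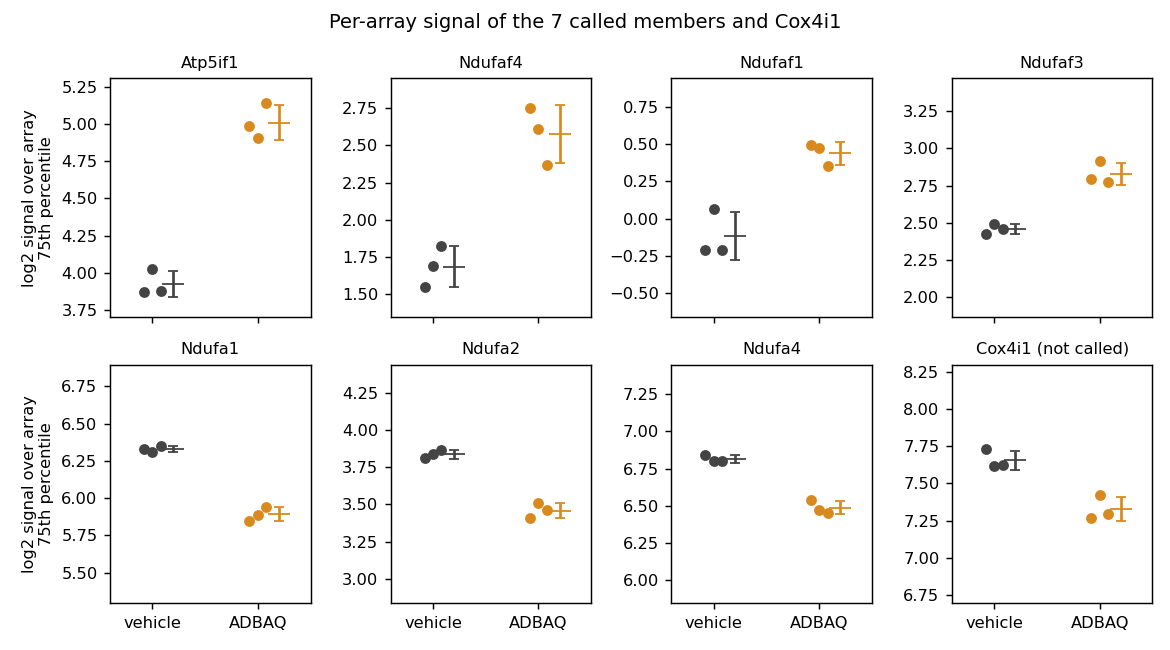
Log2 signal over the array's 75th percentile on each array for the 7 called members and Cox4i1, the subunit nearest to the threshold on its other side; points are arrays, and the bar beside them is the mean ± SD of 3 rats. All panels span 1.6 log2 units. In each of the 8 the 2 groups are apart, with the widest gaps in Atp5if1 and Ndufaf4.

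Complex I had 31 measured structural subunits, of which 2 were called lower and none higher (6.45% called, against 20.3% of all genes). Their median log2 fold change was -0.13, or 91.6% of the vehicle level. On their chosen probes 28 of the 31 lay below 0, as 6148 of 11344 genes did. All 31 were read on the same 6 arrays, so their signs are not independent. In 14 all ADBAQ values lay below all vehicle values (25.1% of all genes did so), and in 2, Ndufa7 and Ndufab1, above them (21.2% of all genes). Ndufa1, a membrane-spanning subunit of the proton-pumping arm encoded on the X chromosome, had values of 6.33, 6.31 and 6.35 in vehicle and 5.85, 5.89 and 5.94 in ADBAQ. The groups were well apart, and it fell by 0.44 on the log2 scale (SE 0.08, adjusted p = 0.0177), with the same change on its second probe. With spike-in scaling the change was 0.32. Its call was lost without any 1 ADBAQ array (adjusted p up to 0.0657).

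Ndufa2, an accessory subunit of the N module, had values of 3.81, 3.84 and 3.87 in vehicle and 3.41, 3.51 and 3.46 in ADBAQ. The ADBAQ values were all lower, and the change was -0.38 ± 0.08 (adjusted p = 0.0270; 0.38 with spike-in scaling), with -0.40 on its second probe, also called. Leaving out any single array ended the call (adjusted p between 0.0555 and 0.0911). Ndufv3, an N-module subunit, and Ndufb8, of the membrane arm, came next in size without passing the threshold, at -0.34 ± 0.11 (adjusted p = 0.0737) and -0.33 ± 0.16 (adjusted p = 0.182). Ndufv3 had values of 6.78, 6.59 and 6.74 in vehicle and 6.42, 6.45 and 6.22 in ADBAQ, all of them lower. Ndufb8 had 7.43, 7.01 and 7.18 against 6.98, 6.63 and 7.01, and the groups met at 7.01. Of the 4 probes of Ndufv3, 3 were lower and 1 was higher, at 0.13. Ndufb10, of the membrane arm, was not called through its brightest probe, at -0.30 (adjusted p = 0.103). Its other 2 probes were called lower, at -0.33 and -0.36 (adjusted p = 0.0433 and 0.0409). With spike-in scaling the brightest probe was at 0.46. Among the core subunits that carry out catalysis, Ndufv1, which binds NADH, was at -0.22 ± 0.08 (adjusted p = 0.117) and Ndufs1, the largest iron-sulphur protein, at -0.07 ± 0.10, and neither was called.

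By module the medians were close. The N module had a median of -0.10 over 10 subunits, with 1 called lower (10%, against 20.3% of all genes called). The Q module had a median of -0.12 over 6, with none called; its lowest, the iron-sulphur subunit Ndufs8, was at -0.28 ± 0.08 (adjusted p = 0.0612). The membrane arm had a median of -0.13 over 15, with 1 called lower (6.67%). On the chosen probes no subunit of the Q module or of the membrane arm lay above 0. A second probe of Ndufc2, of the membrane arm, was called higher at 0.37.

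Complex II, succinate dehydrogenase, also serves the citric acid cycle, and all 4 of its subunits are nuclear-encoded. None was called (20.3% of all genes were), and they moved in both directions around a median of -0.02. Sdha, the flavoprotein that oxidises succinate, had values of 6.63, 6.57 and 6.30 in vehicle and 6.34, 6.37 and 6.19 in ADBAQ, a change of -0.20 ± 0.12 (adjusted p = 0.275). The groups overlapped. Sdhc, a membrane anchor, was the one whose ADBAQ values (4.63, 4.61 and 4.56) all lay above those of vehicle (4.53, 4.39 and 4.35), at 0.18 ± 0.09 (adjusted p = 0.204). Sdhb, the iron-sulphur subunit, had values of 5.12, 5.17 and 4.91 against 5.12, 5.04 and 5.13 (0.03 ± 0.10). Sdhd, the other anchor, had 5.77, 5.71 and 5.62 against 5.68, 5.68 and 5.51 (-0.08 ± 0.10). In both the groups overlapped.

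Complex III had 8 measured subunits, none called, against 20.3% of all genes. All 8 lay below 0 on their chosen probes, as 6148 of 11344 genes did, with a median of -0.14. The lowest was Uqcrfs1, the Rieske iron-sulphur protein, with values of 5.45, 5.32 and 5.15 in vehicle and 5.16, 5.05 and 4.97 in ADBAQ. One ADBAQ array lay within the vehicle range, and the change was -0.25 ± 0.11 (adjusted p = 0.172). Uqcrq, Uqcrh and Uqcr11, small subunits of the complex, were at -0.19 ± 0.16, -0.19 ± 0.09 and -0.19 ± 0.10, with adjusted p between 0.200 and 0.440. Uqcrc1, a large core subunit, was at -0.02 ± 0.10. The other probes of Uqcr11 were at 0.00 and 0.01, and 1 of the 4 probes of Uqcrb was at 0.01. With each gene read as the mean of its probes, the median of complex III was -0.08.

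Complex IV, cytochrome c oxidase, had 15 measured subunits, with 1 called lower and none higher (6.67% called, against 20.3% of all genes). Their median was -0.17, and 12 of 15 lay below 0, as 6148 of 11344 genes did. The called one was Ndufa4, named for complex I but now known as a subunit of complex IV. Its values were 6.84, 6.80 and 6.80 in vehicle and 6.54, 6.47 and 6.45 in ADBAQ. The groups did not overlap, and the change was -0.32 ± 0.08 (adjusted p = 0.0398; 0.43 with spike-in scaling) from 1 probe. Leaving out any single array ended the call (adjusted p between 0.0769 and 0.115), as did quantile normalization. Just outside the threshold lay Cox4i1, the general form of subunit 4, at -0.33 ± 0.09 (adjusted p = 0.0518), with values of 7.73, 7.62 and 7.62 in vehicle and 7.27, 7.42 and 7.29 in ADBAQ. Cox5b, a zinc-binding subunit, was at -0.20 ± 0.10 (adjusted p = 0.184).

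Several complex IV subunits have a second gene used in heart, muscle, lung or testis. Cox4i2, the lung-type form of subunit 4, had values of 2.08, 2.00 and 1.97 in vehicle and 2.22, 2.18 and 2.09 in ADBAQ. All ADBAQ values were above those of vehicle, but the change of 0.15 ± 0.09 was not called (adjusted p = 0.275), and its second probe had the opposite direction. The muscle-type Cox6a2 was at -0.18 ± 0.10 beside -0.08 ± 0.09 for the liver form Cox6a1. The testis-type Cox6b2 was at -0.17 ± 0.09 beside -0.15 ± 0.09 for Cox6b1. On the vehicle arrays the chosen probe of Cox6b2 read 3.84 to 4.00, and its other probe -4.42 to -4.08. The chosen probe of Cox6a2 was dim, at -1.29 to -1.13, and its other probes lay between -4.84 and -3.35. Which probe reports each of these genes was not tested. Cox8b, a muscle-type form with dim signal, was at -0.33 ± 0.23 with a 95% interval from -0.88 to 0.22, the widest among the subunits, and its partner Cox8a at 0.04 ± 0.09. None of these was called, and the differences between partners were not tested. Cox7a2 was at -0.19 ± 0.10, without a measured muscle-type partner. Cox7a2l, which helps to join complexes III and IV, was at -0.04 ± 0.12.

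Complex V had 14 measured subunits, with none called (20.3% of all genes were) and 6 above 0 (5196 of 11344 genes were). Their median was -0.02, or 98.4% of the vehicle level. In the catalytic F1 part, Atp5f1a had values of 8.45, 8.39 and 8.35 in vehicle and 8.22, 8.22 and 8.14 in ADBAQ. All ADBAQ values were lower, but the difference of -0.20 ± 0.08 was not called (adjusted p = 0.133). Its partner Atp5f1b was at -0.07 ± 0.10, and Atp5f1c, the rotating central shaft, at 0.21 ± 0.10 (adjusted p = 0.196), the highest of the 72 structural subunits. In the membrane part and the stalk, Atp5mc2, one of the genes for the ring subunit c, was at -0.22 ± 0.08 (adjusted p = 0.116), with another of its probes called at -0.30. Atp5po, the stalk subunit that confers oligomycin sensitivity, was at 0.16 ± 0.09. The inhibitor Atp5if1 changed by 2.12-fold while the subunits of the enzyme it binds ranged from -0.22 to 0.21 on the log2 scale.

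**Figure D3:**
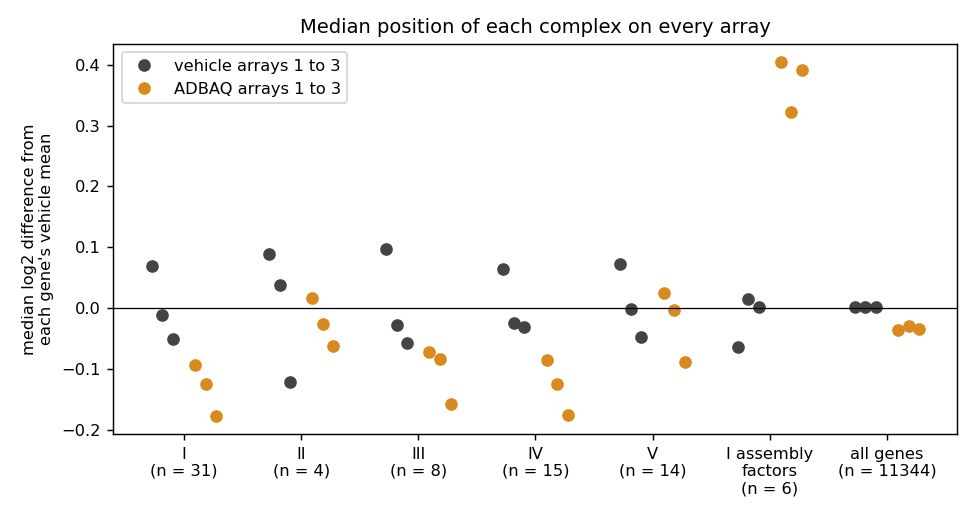
Median difference, on the log2 scale, of the genes of each complex from their own vehicle means, on every array; points are single arrays in the order of their replicate numbers. Complexes I and IV on the ADBAQ arrays lie between -0.09 and -0.18 and between -0.08 and -0.17, those of complexes II and V overlap the vehicle arrays, and the 6 assembly factors lie between 0.32 and 0.40.

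On single arrays the median difference of complex I genes from their vehicle means was 0.07, -0.01 and -0.05 in vehicle and -0.09, -0.12 and -0.18 in ADBAQ. Complex IV had 0.06, -0.02 and -0.03 in vehicle against -0.08, -0.12 and -0.17 in ADBAQ. In both, all 3 ADBAQ arrays were below all 3 vehicle arrays, as they were for the median of all genes tested, at 0.00 on each vehicle array and -0.04, -0.03 and -0.03 in ADBAQ. For complex II the values were 0.09, 0.04 and -0.12 against 0.02, -0.03 and -0.06, and for complex V 0.07, -0.00 and -0.05 against 0.03, -0.00 and -0.09, so that the groups overlapped. In complex III they did not overlap, but the nearest arrays were at -0.06 and -0.07. Over the 82 members the groups did not overlap in 26 genes with ADBAQ lower and in 12 with ADBAQ higher, against 25.1% and 21.2% of all genes, or 46.3% in either direction.

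The 95% interval of a change describes the precision of the mean difference between the groups in the limma fit, under a given scaling. It covers neither the choice of scaling nor the slide, which cannot be told apart from the treatment. With spike-in scaling the medians of the complexes lay between 0.59 and 0.74 on the log2 scale. The intervals were not adjusted for the number of genes, and a limit of a 1.5-fold change was chosen after the values were seen. With the percentile scaling, the interval lay within that limit, in either direction, in 67 of the 72 structural subunits. That is 93.1% of them, against 48.9% of all genes tested. The 5 outside it were Ndufa1, Ndufv3, Ndufb8, Uqcrq and Cox8b. The median width of the interval was 0.22 on the log2 scale to either side in these subunits and 0.31 over all genes tested. The share within the limit depends on that width as well as on the change. Without adjustment, 14 of the 72 subunits had a p under 0.05, all of them lower in ADBAQ. That is 19.4%, against 38.3% of all genes tested.

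Spike-in scaling shifted all members by the same amount, while quantile normalization and normexp moved the complexes by unlike amounts. With normexp the median of complex IV went from -0.17 to -0.05 and that of complex I from -0.13 to -0.11. Scaled to 8 spike-in control probes, which read a fixed amount of added RNA, the median of all genes was 0.72 and that of the members 0.68. Then 80 of 82 members were called higher and none lower. The mean log2 signal of these controls was 13.10, 13.21 and 13.15 in vehicle and 12.89, 12.77 and 12.80 in ADBAQ. The controls themselves were thus lower on the ADBAQ slide. With quantile normalization the median of the members was 0.01 and that of all genes -0.01. The medians of complexes II and V turned from -0.02 to 0.04 and from -0.02 to 0.09, while those of complexes I, III and IV stayed below 0. The members' median minus that of all genes was -0.04 with the 75th percentile and with the spike-in controls, 0.01 with quantile normalization, 0.02 without a filter on dim probes and 0.04 with normexp, so that its sign depended on the setting.

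**Figure D4:**
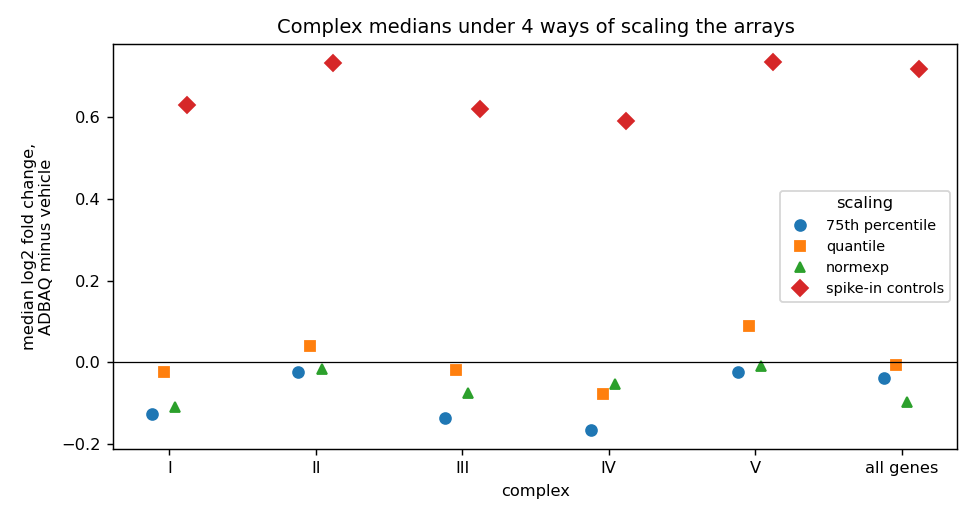
Median log2 fold change (ADBAQ minus vehicle) of the structural subunits of each complex and of all genes tested under 4 ways of scaling or background correction. Scaling to the spike-in controls raises every median to between 0.59 and 0.74, and under the other 3 the complexes lie between -0.17 and 0.09.

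Several genes have more than 1 probe, which gives a check on the chosen one. Of 41 members with several measured probes, 25 had all of them in 1 direction and 16 had both. The 16 were Atp5mk, Atp5pf, Cox4i2, Cox5a, Cox6a2, Cox6b1, Cox7a2l, Ndufa10l1, Ndufa12, Ndufab1, Ndufc2, Ndufs1, Ndufv3, Sdhb, Uqcr11 and Uqcrb, none of them called. In Ndufc2, a membrane-arm subunit, the chosen probe was at -0.06 and the other was called at 0.37 (adjusted p = 0.0491). The symbol rule matched 227 genes in RefSeq, 108 of them pseudogenes, and no probe was checked for matches to other genes, so members with near-identical copies are uncertain. Ndufa10l1, a near copy of Ndufa10, and Cox6c-ps1, a pseudogene, were at -0.06 and 0.02 and are in no complex here.

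The promoters of called members are shown because they let the sequence before each start site be read beside the direction of change. RefSeq promoter sequences (build GRCr8) were found for 73 members, and the 250 bases before the start site were searched on both strands for the core motifs of NRF1 (GCGC, then GCGC again, with 2 bases of any kind between), the ETS family to which GABP belongs (CCGGAAG), the antioxidant response element bound by NRF2 (TGACNNNGC) and the xenobiotic response element bound by the AhR (TNGCGTG). NRF1 and GABP are the classical activators of nuclear genes for respiratory subunits. Capitals below mark any match. The first 3 genes rose and the last fell.
Atp5if1, chr5:150026678-150026927, minus strand: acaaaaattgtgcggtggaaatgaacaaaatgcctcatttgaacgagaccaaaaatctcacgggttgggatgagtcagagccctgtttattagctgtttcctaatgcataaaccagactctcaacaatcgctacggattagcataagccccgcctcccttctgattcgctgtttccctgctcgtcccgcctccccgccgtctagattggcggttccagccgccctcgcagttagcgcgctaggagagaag
Ndufaf4, chr5:43401545-43401794, plus strand: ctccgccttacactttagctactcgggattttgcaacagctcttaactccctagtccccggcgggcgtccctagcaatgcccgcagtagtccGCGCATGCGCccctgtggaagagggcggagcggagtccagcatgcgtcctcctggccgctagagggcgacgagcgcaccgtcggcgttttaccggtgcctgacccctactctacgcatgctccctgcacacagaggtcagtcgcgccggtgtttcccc
Ndufaf1, chr3:127104021-127104270, minus strand: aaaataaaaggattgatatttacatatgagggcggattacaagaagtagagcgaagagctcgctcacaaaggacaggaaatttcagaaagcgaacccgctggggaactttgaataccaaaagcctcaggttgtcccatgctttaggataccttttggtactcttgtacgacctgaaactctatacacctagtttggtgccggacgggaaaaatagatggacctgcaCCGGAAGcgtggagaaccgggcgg
Ndufa1, chrX:121293556-121293805, minus strand: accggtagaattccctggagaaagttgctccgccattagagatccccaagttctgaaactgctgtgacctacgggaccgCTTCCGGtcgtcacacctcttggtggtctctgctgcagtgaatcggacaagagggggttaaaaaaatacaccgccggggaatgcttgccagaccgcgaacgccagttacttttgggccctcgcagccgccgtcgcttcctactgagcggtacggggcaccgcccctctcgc

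The window of Ndufaf4 holds the NRF1 motif, those of Ndufaf1 and Ndufa1 the ETS motif (in Ndufa1 on the other strand), and that of Atp5if1 none of the 4. Over the members, 13 of 73 windows held the NRF1 motif (17.8%, against 4.798% of all RefSeq promoter windows of this length), and 21 held the ETS motif (28.8% against 7.27%). The antioxidant element was in 9 (12.3% against 10.1%) and the xenobiotic element in 6 (8.22% against 4.09%). Among the 7 called members, the antioxidant element was in Ndufaf3 and the ETS motif also in Ndufa2. A match describes letters in this window and no more.

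Genes that work with these complexes showed changes in both directions. Of 35 other measured assembly factors 4 were called higher and none lower, with a median of 0.05. That is 11.4% called, against 20.3% of all genes (9.05% higher and 11.3% lower). Lyrm7, which chaperones the Rieske protein into complex III, had values of -1.25, -1.48 and -1.19 in vehicle and -0.34, 0.01 and -0.33 in ADBAQ. It rose by 1.08 ± 0.14 (adjusted p = 0.00788), or 2.12-fold, and stayed called with any 1 array left out. Bcs1l, which inserts the Rieske protein, rose by 0.58 ± 0.10 (adjusted p = 0.0143; 0.0548 without ADBAQ replicate 1). The other 2 were Acad9, a complex I assembly factor, at 0.52 (adjusted p of 0.0518 without ADBAQ replicate 3), and Cox11, which delivers copper to complex IV, at 0.44 (not called once any single array was left out, adjusted p up to 0.0727).

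Among 16 electron carriers and genes of coenzyme Q, 1 was called higher and 4 lower (31.2%, against 20.3% of all genes). Their median was 0.02. Coq8a, a kinase-like protein of coenzyme Q synthesis, had values of 4.78, 4.12 and 4.45 in vehicle and 2.81, 3.20 and 3.36 in ADBAQ, a change of -1.33 ± 0.21 (adjusted p = 0.0128), which stayed called with any 1 array left out. With spike-in scaling it did not pass the threshold. The other 3 that fell were Coq10a (-0.60), Etfb (-0.48) and Etfdh (-0.46), the last 2 of the electron transfer flavoprotein chain, and Coq5 was higher at 0.45. Each of these 4 calls was lost without at least 5 of the 6 arrays in turn. Cycs, cytochrome c, was at 0.05 ± 0.09, and Cyc1 had no named probe.

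Of 18 citric acid cycle and pyruvate genes 2 were called higher and 4 lower (33.3%, against 20.3% of all genes). Their median was -0.11. Pc, pyruvate carboxylase, was at -0.63 ± 0.13 (adjusted p = 0.0241), a call that held without vehicle replicate 3 (adjusted p = 0.0497) and was lost without any other 1 array (adjusted p up to 0.0665). Idh2, an isocitrate dehydrogenase, had a larger difference of -0.72 ± 0.21 but was not called (adjusted p = 0.0609). Of 13 carriers and channels only Vdac2, an outer membrane pore, was called (7.69%, against 20.3% of all genes). It was at 0.41, with its 2 probes in opposite directions and no call on their mean. Ckmt1, a mitochondrial creatine kinase with dim signal, was at 0.38 ± 0.17 (adjusted p = 0.170). With normexp Ckmt1 was at -0.31 and called lower. The call of Vdac2 held without vehicle replicate 1 and was lost without any other 1 array (adjusted p up to 0.0937).

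Regulators of mitochondrial biogenesis had 3 of 21 called higher and 1 lower, with a median of 0.09. That is 19% called, close to the 20.3% of all genes. The main transcription factors were not called: Nrf1 was at -0.02 ± 0.10, Gabpa, the DNA-binding part of GABP, at 0.05 ± 0.09, the nuclear receptor Esrra at 0.07 ± 0.09 and Tfam, which packs mitochondrial DNA, at 0.16 ± 0.09 (adjusted p = 0.254). Ppargc1a, their coactivator, was not well above background in either group. Polg, the mitochondrial DNA polymerase, was called lower at -0.96 ± 0.18 (adjusted p = 0.0182). That call ended on leaving out any single ADBAQ array (adjusted p up to 0.0625) and with spike-in scaling. The 3 called higher were the mitochondrial transcription genes Tefm (0.52), Tfb2m (0.41) and Tfb1m (0.34), each lost without 5 or 6 of the arrays in turn. Mterf2, a regulator of mitochondrial transcription, was at 0.68 ± 0.29 (adjusted p = 0.147).

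Mitochondrial ribosomal proteins had 6 of 66 called higher and 1 lower, with a median of 0.06. That is 10.6% called, against 20.3% of all genes (9.05% higher and 11.3% lower). Mrpl49 rose by 0.78 ± 0.10 (adjusted p = 0.00758) and stayed called with any 1 array left out, whereas the call of Mrps18b, at 0.78 ± 0.19 (adjusted p = 0.0380), did not hold without ADBAQ replicates 1, 2 or 3 or vehicle replicate 3 (adjusted p up to 0.108). Protein import genes had 5 of 19 called higher and 1 lower (31.6% called), with a median of 0.19. Among them Timm21, of the inner membrane translocase, had values of 2.15, 2.33 and 2.03 in vehicle and 3.11, 2.95 and 3.03 in ADBAQ, a change of 0.86 ± 0.11 (adjusted p = 0.00803) that stayed called with any 1 array left out. Tomm20l, a relative of an outer membrane receptor, was at -1.14 ± 0.27 (adjusted p = 0.0351), lost without 5 of the 6 arrays in turn and with spike-in scaling. Of 13 proteases and chaperones none was called by limma, against 20.3% of all genes. By unadjusted p under 0.05 there were 5 (38.5%, against 38.3% of all genes tested), and the median was 0.17. The protease subunits Afg3l2 and Spg7 were each at 0.46 (adjusted p of 0.0597 and 0.0977). Of the 34 calls in these 9 lists, 6 held with each array left out: Coq8a, Lyrm7, Mrpl47, Mrpl49, Mrps2 and Timm21. Of 8 antioxidant genes 1 was called (12.5%, against 20.3% of all genes). This was Sod2, the matrix superoxide dismutase, higher at 0.53 ± 0.12 (adjusted p = 0.0315). Its call held without vehicle replicate 2 and was lost without any other 1 array (adjusted p up to 0.100). Nnt, which makes NADPH at the expense of the proton gradient, was at -0.29 ± 0.12 (adjusted p = 0.130).

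**Figure D5:**
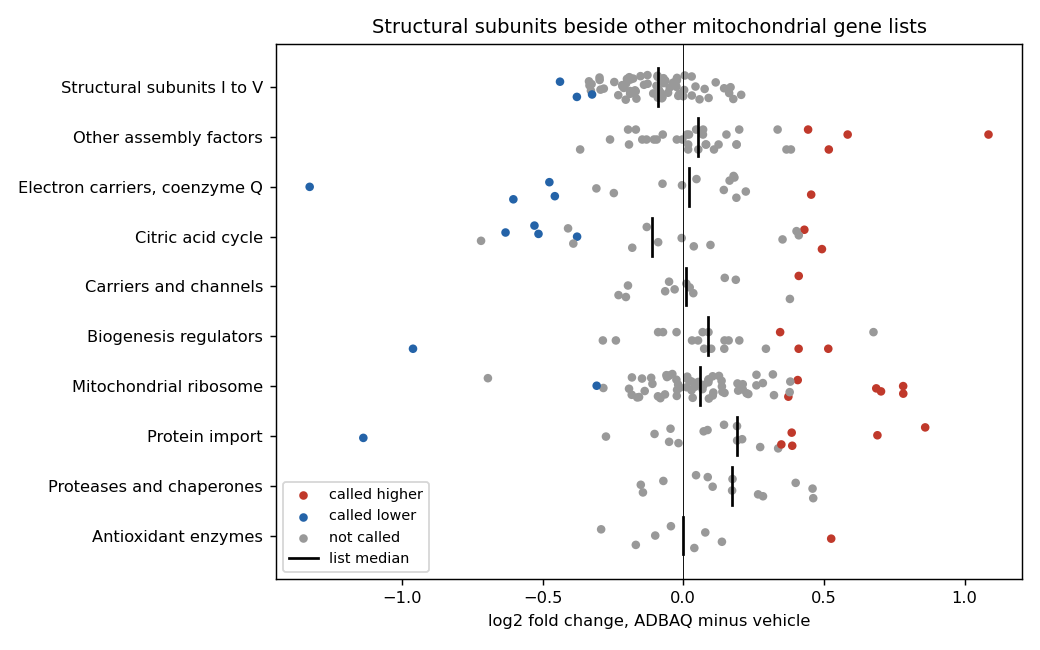
Log2 fold change (ADBAQ minus vehicle) of single genes in the 72 structural subunits and in 9 other mitochondrial lists; points are genes, colours mark the calls and black bars are list medians. The structural subunits lie between -0.44 and 0.21, with 3 calls. Proteases and chaperones (-0.15 to 0.46) and carriers and channels (-0.23 to 0.41) span a range of like width, and the electron carriers reach down to -1.33.

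Marker genes of liver cell types differed between the groups as well. Of all genes 20.3% were called, 9.05% higher and 11.3% lower. All 12 hepatocyte markers were measured, 9 were called lower, and their summed signal, as multiples of the 75th percentile, was 8850 to 9349 in vehicle and 6362 to 6796 in ADBAQ. All 5 measured erythroid markers were called higher, with sums of 718 to 1079 against 1440 to 1890. Of 6 cholangiocyte markers 3 were called higher and 1 lower (sums of 1.76 to 2.04 against 2.78 to 4.28), and of 8 macrophage markers 1 was called higher (88.0 to 105.1 against 107.3 to 124.8). None of 8 stellate markers (33.4 to 45.8 against 31.1 to 35.4) and none of 4 endothelial markers (37.2 to 41.1 against 30.5 to 34.8) was called by limma. In each list 2 had an unadjusted p under 0.05 (25% and 50%, against 38.3% of all genes tested). Of 7 lymphoid markers 1 was called lower (3.09 to 3.85 against 2.93 to 3.30). Of the striated muscle markers, relevant to the muscle-type subunits, Myh1, Myh6, Myh7 and Tnni1 were not well above background on any array, and none of 7 measured ones was called. Of the brown fat markers Ucp1, Dio2 and Elovl3 were not well above background on any array. The part of these markers in the changes of the members was not tested.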

How the data were processed

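Liver RNA of 6 rats was measured on 1 one-colour Cy3 Agilent array each. The deposited scanner output, made with Agilent Feature Extraction 10.7.1.1 per the file headers (10.7 in the submitters' processing notes), gives a processed intensity per spot with the background removed and no scaling between arrays. Flags for spots above background, saturated spots and outliers come from the same deposited files. The deposited value table holds, as a ratio on a linear scale, each array's processed signal over its 75th percentile: set against the scanner values of 36026 probes, 100% of values in each of the 6 columns lay within 1% of that column's own scale. Its column medians were 0.0967, 0.0970 and 0.0982 in vehicle and 0.0929, 0.0971 and 0.0952 in ADBAQ, and the genes were not centred.

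Here log2 of the processed signal minus log2 of the array's 75th percentile was used, without 1319 control spots and outlier spots (at most 2 on an array). Of 61657 probes, 38695 were kept, namely those that either group showed well above background on all 3 of its arrays. Through their accessions RefSeq (GRCr8) named 27460 probes, and a gene was read from its kept probe with the highest mean signal. The difference between groups was fitted by lmFit and eBayes (limma 3.58.1, R 4.3.3), with Benjamini-Hochberg adjustment over all kept probes and a threshold of 0.05, and the script was tested on simulated data. The rats were separate animals.

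The members, the gene lists and the alternatives were chosen with earlier results of these data known. Named genes were, per complex and among the assembly factors, up to 4 with the most extreme changes, called ones first. Core subunits, tissue isoforms and regulators were fixed by name. Members with disagreeing probes, and up to 2 genes per related list, were picked from the data by rule. Ndufs8, Ndufb10, Ndufaf5, Ndufaf8 and the further called genes of the related lists were added after their values were seen. The result of 1 gene fixed by name is not reported here.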

Additional observations from a re-analysis of the deposited data

How the results depend on the processing

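The results were recomputed under 17 alternatives. Atp5if1 stayed called in all 17 and Ndufaf4 in 16, the exception being the replicate block. Scaling to the spike-in controls raised all values: 9128 genes were called instead of 2308 (97.97% of them higher, against 44.5% with the 75th percentile), 80 members were called higher and 0 lower, and the median was 0.68 for the members, 0.63 for complex I, 0.73 for complex II, 0.62 for complex III, 0.59 for complex IV and 0.74 for complex V. Normexp background correction, run on the median spot signal, gave 4049 calls (34.4% higher), 6 members higher and 12 lower and a complex IV median of -0.053. Without a filter on dim probes there were 3530 calls (32.4% higher) and 5 members lower, and with a trended, robust variance 8 members were lower. Quantile normalization moved the median of the members to 0.0080, of complex I to -0.025, of complex III to -0.019, of complex IV to -0.079 and of complex V to 0.090. Leaving out 1 array gave 901 to 1547 calls over all genes, 2 to 3 members higher and 0 to 1 lower. The cause of these shifts was not tested.

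With the replicate number as a block, 982 genes were called, with 1 member higher and 0 lower. The numbers did not pair the rats: the correlations of same-numbered arrays' deviations were -0.03, -0.02 and -0.00, and no array correlated best with its own number. The slide as a block was not run, because each slide holds 1 group. With 3 rats per group, small changes were not detectable.

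Genes negative with the 75th percentile and called higher with spike-in scaling included Ndufa1 (0.32), Ndufa2 (0.38), Ndufv3 (0.42), Ndufv1 (0.54), Ndufs1 (0.69), Ndufs8 (0.48), Ndufaf8 (0.76), Ndufc2 (0.69), Ndufa10l1 (0.70), Sdha (0.56), Sdhd (0.68), Uqcrfs1 (0.51), Uqcrq (0.57), Uqcrh (0.57), Uqcr11 (0.57), Uqcrc1 (0.73), Uqcrb (0.67), Ndufa4 (0.43), Cox4i1 (0.43), Cox5a (0.66), Cox5b (0.55), Cox6a1 (0.68), Cox6a2 (0.58), Cox6b1 (0.61), Cox6b2 (0.59), Cox7a2 (0.57), Cox7a2l (0.71), Atp5mc2 (0.54), Atp5mk (0.74), Atp5f1a (0.55), Atp5f1b (0.68), Nrf1 (0.73) and Nnt (0.47). Coq10a (0.15) and Pc (0.13), called lower before, turned positive and were not called. Ndufb8 (0.42) and Cox8b (0.43) turned positive without being called. Ckmt1 was called lower with normexp, at -0.31.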
